A study of Mus musculus with 20 samples.

Results

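The miRNA profile of mouse kidney was compared with those of lung, liver, heart and spleen. The kidney arrays were chosen by the tissue word in their labels and numbered 4 of the 20 arrays, 2 from klotho(-/-) mice and 2 from wild-type littermates, and the other 4 tissues held the remaining 16 arrays. All mice were males, 5 weeks old. The klotho(-/-) mice lack klotho, a membrane protein made mainly in kidney and known for its part in mineral balance, and they serve as a model of early ageing. By the study's legend the 2 arrays of a group came from 2 individual mice. Small RNA carrying 1 dye was hybridized to chips that hold probes for 200 miRNAs, and all 200 were used here.

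A miRNA is cut from a hairpin precursor and guides a silencing complex to messenger RNAs. Pairing is led by the seed, the bases near its 5′ end, so miRNAs of the same seed can share targets. Kidney is mostly tubule epithelium, and epithelium is known for the miR-200 family, which represses the factors ZEB1 and ZEB2 and so helps to hold cells in an epithelial state. The miR-30 family is broadly expressed and known in kidney tubules and podocytes, while miR-192 and miR-194 mark epithelium of kidney, gut and liver. miR-10 and miR-196 genes lie inside the Hox clusters, whose genes set position along the body.

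The sequences below belong to the miRNAs on which the comparison turns. They are mature mouse sequences from RefSeq on GRCm38.p6, written 5′ to 3′ with the seed, bases 2 to 8, in capitals. Of 21 probes looked up, 18 had an entry, and miR-30b, miR-30d and miR-187 are given by name. The chip's probe names are old, so an unmarked name was read as the arm that carries that name today. The first set shares the seed GUAAACA.
miR-30a-5p: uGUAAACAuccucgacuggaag
miR-30c: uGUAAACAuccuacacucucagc
miR-30e: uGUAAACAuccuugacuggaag
The miR-200 family falls into 2 seeds.
miR-200a: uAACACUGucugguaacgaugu
miR-141: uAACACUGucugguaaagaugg
miR-200b: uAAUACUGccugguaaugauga
miR-200c: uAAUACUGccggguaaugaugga
The others shown here each have a seed of their own among the printed sequences.
miR-10b: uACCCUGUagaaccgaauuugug
miR-196a: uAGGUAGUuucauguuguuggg
miR-194: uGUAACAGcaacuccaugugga
miR-192: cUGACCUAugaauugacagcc
miR-204: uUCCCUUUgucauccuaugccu
miR-34a: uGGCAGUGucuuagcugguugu
miR-30a-5p and miR-30e differed at 1 of 22 positions, and both differed from miR-30c at 5. miR-200a differed from miR-141 at 2 of 22 positions, as did miR-200b from miR-200c. The chip's probe sequences were not used here, so how far signals of such near neighbours mix was not tested.

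Signals are given on 2 scales. The deposited signal is the background-subtracted fluorescence as the authors gave it. The normalized signal was computed from the uncorrected fluorescence by background correction and quantile normalization over all 20 arrays, which gives probes of equal rank an equal value. Differences are in log2 of the normalized signal plus 50, kidney minus the mean of the other 4 tissues, with the SE of a limma model that holds tissue and genotype (n = 4 kidney and 16 other arrays). The added 50 draws differences of dim probes toward 0. A miRNA is called rich in kidney at an adjusted p under 0.05 and a difference above 1, and poor below -1. The summed deposited signal ran from 13158 to 24080 on the kidney arrays and from 4162 to 57568 on the others, the highest being a lung array. Probes were also counted after the background correction but before quantile normalization. A signal of at least 10 was reached by 91 to 97 probes per kidney array and by 52 to 113 per array elsewhere. Duplicate arrays correlated across probes with Pearson's r of 0.987 in klotho(-/-) and 0.966 in wild-type kidney (96 probes each), and least in klotho(-/-) spleen (0.815, 108 probes). One of that pair, klotho(-/-) Spleen 1, held all 4 miR-200 family probes above the other 3 spleen arrays, and without it the 8 rich and 6 poor miRNAs and the 14 above each tissue, given below, were the same. The chip does not measure klotho mRNA, so the genotype labels have no check here.

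Kidney stood out by 3 sets of miRNAs, namely miR-200a and miR-200b, 4 members of the miR-30 family, and miR-10b, with miR-194 beside them. These 8 of 200 miRNAs were rich in kidney (4% of probes), at differences of 1.24 to 1.76. Against them 6 were poor (3%), at -1.50 to -1.002, and all of these are known as miRNAs of heart muscle, hepatocytes or blood cells. At any difference, 33 miRNAs were higher (16.5%) and 23 lower (11.5%), and the median over all 200 was -0.02. With the arrays scaled by their median over probes that were bright everywhere, the split was 20 higher and 34 lower. The SE and p measure the spread of arrays around the model of tissue and genotype, pooled over all tissues, with 2 mice per genotype. That spread takes in genotype differences that vary by tissue. In whole tissue, fewer cells of a type and less RNA per cell cannot be told apart.

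**Figure D1:**
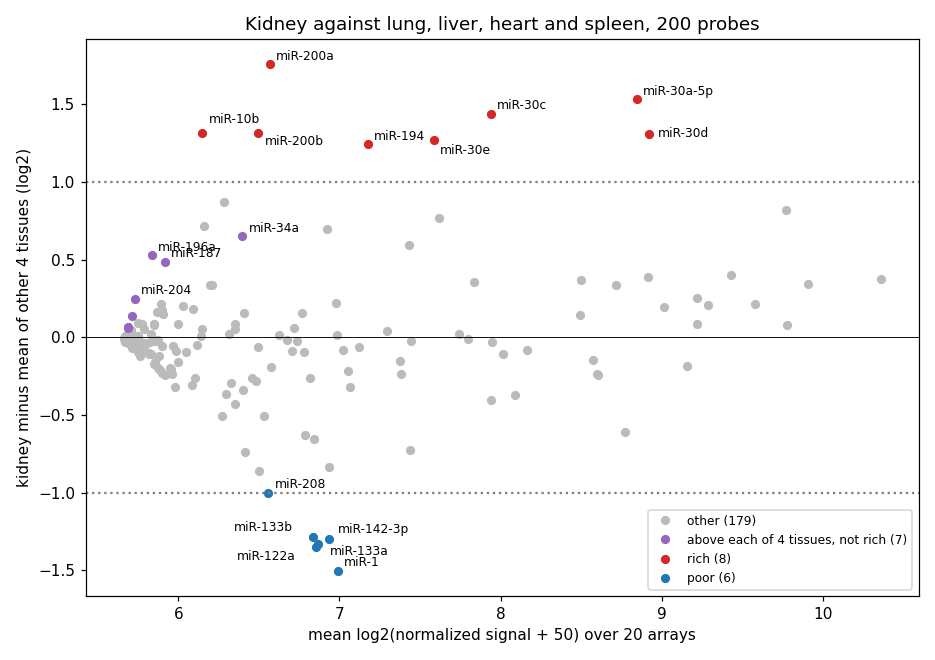
Each point is 1 of 200 miRNA probes, with its mean log2(normalized signal + 50) over 20 arrays on the horizontal axis and the log2 difference of kidney from the mean of the other 4 tissues on the vertical axis. Dotted lines mark differences of 1 and -1, with 8 miRNAs rich above and 6 poor below, and 7 more that lay above each of the 4 tissues at smaller differences.

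The markers of the tissue label were high on the kidney arrays. All 3 of them, miR-200a, miR-10b and miR-30a-5p, were rich in kidney and higher there than in each other tissue. They were chosen with results of these arrays known, so this is no independent check. A mean over 4 tissues can be set by 1 of them, so kidney was also compared with each tissue on its own. There were 14 miRNAs higher in kidney than in each of the 4 tissues (7% of probes, limma, adjusted p under 0.05 in each), and for these same 14 all 4 kidney arrays lay above all 16 others (7%). Lower than each of the 4 tissues by the model were 0 (0%), also at an unadjusted p under 0.05. All 4 kidney arrays lay below all 16 others for 2 miRNAs (1%), miR-134 and miR-292-3p. Both were near the floor in kidney, at deposited signals of 2 to 3.

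miR-10b, which lies between Hox genes on chromosome 2, was set apart by similar margins from each tissue. Its normalized signal was 99.7 and 99.7 on the klotho(-/-) kidney arrays and 91.0 and 99.7 on the wild-type ones. The other arrays ranged from 8.32 to 13.3 in lung, 4.90 to 20.6 in liver, 6.42 to 11.5 in heart and 1.85 to 11.5 in spleen, so the groups lay far apart. The difference was 1.32 ± 0.06 (adjusted p = 1.8e-11), and it ran from 1.26 against liver to 1.40 against spleen. Deposited signals were apart as well, at 64 and 90 in wild-type kidney and up to 156 in klotho(-/-) kidney, with the highest lung array at 35 and the liver arrays at 2 to 3, which is the floor.

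miR-196a was the other miRNA of the Hox clusters on the chip, and it too was set apart. Its normalized signal was 27.4 and 26.8 in klotho(-/-) and 25.2 and 26.8 in wild-type kidney, against at most 9.81 on any other array, a liver one. The difference was 0.53 ± 0.03 (adjusted p = 1.4e-10) on the offset scale. Its deposited signal elsewhere was 2 to 4, at or near the floor, so no fold is given. Both miRNAs of the list that were on the chip were thus above each of the 4 tissues (7% of all probes), with a median difference of 0.92.

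The miR-200 family was bright in kidney and lung and dim in the other 3 tissues. All 4 members on the chip were higher in kidney than the mean of the others (16.5% of all probes), 2 of them rich (4%), with a median of 1.10 beside -0.02 over all probes. Their summed normalized signal was 460 to 491 on the kidney arrays, 283 to 329 in lung, 36.2 to 54.8 in liver, 6.90 to 18.4 in heart and 11.8 to 197 in spleen. miR-200a and miR-200b come from neighbouring hairpins 695 bases apart on chromosome 4, and miR-200c and miR-141 from hairpins 336 bases apart on chromosome 6.

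miR-200a had normalized signals of 183 and 200 in klotho(-/-) and 213 and 213 in wild-type kidney, against 82.4 to 104 in lung, 11.8 to 28.3 in liver, 1.65 to 5.46 in heart and 2.93 to 42.4 in spleen. No other array reached the kidney range. It had the largest mean difference of all 200 probes, 1.76 ± 0.11 (adjusted p = 6.3e-10), made up of 0.83 against lung and 1.92 to 2.26 against the other tissues. miR-200b followed at 1.32 ± 0.14 (adjusted p = 1.2e-06), with normalized signals of 157, 131, 131 and 131 in kidney and 69.4 to 79.0 in lung. Its margin over lung was 0.60 ± 0.18 (adjusted p = 0.022). It no longer passed against each tissue without klotho(-/-) Kidney 1, wild-type Kidney 1 or wild-type Kidney 2.

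For the pair on chromosome 6 the normalized signals of lung and kidney overlapped and the difference did not pass. miR-141 had a difference of 0.87 ± 0.09 (adjusted p = 8.8e-07) from the mean, and of -0.06 ± 0.12 from lung (adjusted p = 0.91). For miR-200c these values were 0.72 ± 0.11 (adjusted p = 6.0e-05) and 0.10 ± 0.14 (adjusted p = 0.79). Kidney and lung overlapped for both, at 67.1 to 91.0 against 72.0 to 95.4 for miR-141 and 46.5 to 64.3 against 38.7 to 55.3 for miR-200c. A difference between the pairs was not tested. In deposited signals, before any scaling, the brighter lung arrays overlapped kidney for miR-200a as well (113 to 233 against 163 to 242), and without scaling neither miR-200a nor miR-200b passed against each tissue.

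**Figure D2:**
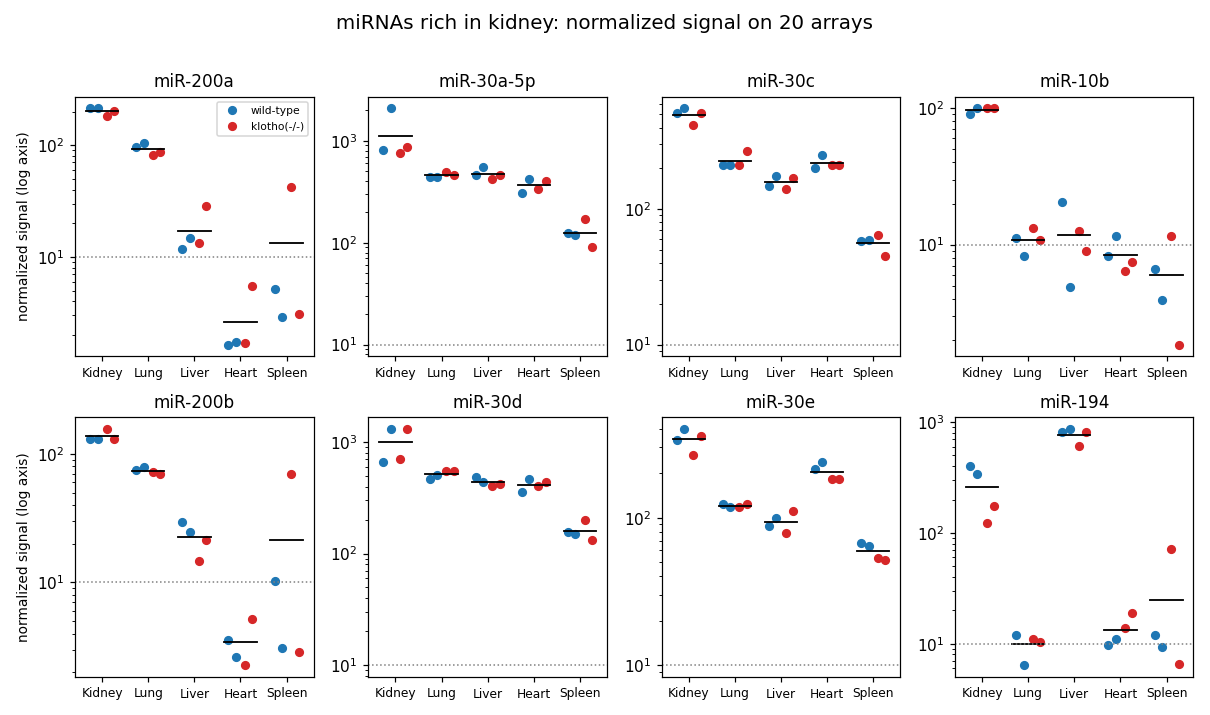
Normalized signal (log axis) of the 8 miRNAs rich in kidney on each of 20 arrays, by tissue, with wild-type arrays in blue, klotho(-/-) arrays in red, the tissue mean as a bar and a signal of 10 as a dotted line. For 7 of them all 4 kidney arrays lie above the 16 others, while miR-194 is highest in liver on this scale, at 606 to 870.

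The miR-30 family was higher in kidney as a whole. All 5 guide strands passed as higher (16.5% of all probes) and 4 of them were rich (4%), with a median difference of 1.31, and both passenger strands on the chip passed with a median of 0.28. The summed normalized signal of the guides was 2383 to 4660 on the kidney arrays, 1419 to 1595 in lung, 1156 to 1364 in liver, 1276 to 1597 in heart and 360 to 555 in spleen, so that kidney and spleen formed the ends. These miRNAs come from separate gene pairs. Mir30a and Mir30c-2 lie 19361 bases apart on chromosome 1, and Mir30c-1 and Mir30e lie 2983 bases apart on chromosome 4.

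miR-30c had the narrowest log2 range of the guide strands over the kidney arrays. Its normalized signals were 418 and 511 in klotho(-/-) and 511 and 554 in wild-type kidney, against 213 to 269 in lung, 140 to 177 in liver, 200 to 251 in heart and 44.9 to 64.3 in spleen. The groups did not overlap, and the difference was 1.44 ± 0.08 (adjusted p = 8.6e-11). miR-30a-5p had the larger difference and the larger error, 1.53 ± 0.18 (adjusted p = 2.5e-06), since its kidney values were 751, 870, 807 and 2078. The last, on wild-type Kidney 2, is the value that normalization gives to the brightest probe of an array, and its deposited signal there was 671, between those of the other kidney arrays (520 to 930). Without that array the difference of miR-30a-5p was 1.21. The mean normalized signals were 459 in lung, 476 in liver and 367 in heart, and spleen was lowest, at 91.0 to 170. In deposited signals these tissues lay far apart, at 578 to 1571 in lung, 372 to 505 in heart and 52 to 117 in liver.

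miR-30d had normalized signals of 708 and 1318 in klotho(-/-) and 662 and 1318 in wild-type kidney and of at most 554 elsewhere, with a difference of 1.31 ± 0.15 (adjusted p = 1.6e-06). Its deposited signals were 911 and 839 in klotho(-/-) and 467 and 623 in wild-type kidney, in the same order. Lung overlapped these and reached higher, at 652 to 1697. miR-30e had 269, 360, 338 and 402 in kidney, and heart was next at 183 to 237. Its difference was 1.27 ± 0.07 (adjusted p = 1.5e-10) from the mean and 0.62 ± 0.09 from heart (adjusted p = 3.1e-05). miR-30b was the member that stayed below the threshold, at 0.77 ± 0.09 (adjusted p = 3.1e-06), and it did not pass against heart (0.29 ± 0.12, adjusted p = 0.09). The passenger strands miR-30a-3p and miR-30e* had differences of 0.34 ± 0.06 and 0.22 ± 0.04, and neither passed against all 4 tissues.

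The size of the miR-30 result depended on the scaling more than its direction did. With median scaling over probes bright on all arrays, miR-30a-5p stood at 0.82, miR-30c at 0.89, miR-30d at 0.71 and miR-30e at 0.75, so all 4 were higher but not rich, and the rich miRNAs were miR-10b, miR-200a and miR-200b. Without any scaling the 4 stood at 1.12 to 1.27 and stayed rich, though none passed against each tissue. In deposited signals lung overlapped kidney for miR-30a-5p (578 to 1571 against 520 to 930) and reached higher for miR-30c (up to 645 against 286 to 477). Lung also overlapped kidney for miR-30d (652 to 1697 against 467 to 911) and miR-30e (121 to 290 against 204 to 334).

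miR-194 was rich in kidney by the mean but was brighter in liver after normalization. Its normalized signal was 123.95 and 177 in klotho(-/-) and 402 and 338 in wild-type kidney, 606 to 870 in liver and at most 72.0 in the other tissues. Kidney was thus higher by 2.27 than lung, 2.19 than heart and 2.02 than spleen, while its difference from liver was -1.50 ± 0.26 (adjusted p = 0.00019). In deposited signals liver and kidney overlapped, with a median of 178 in liver against 201 in kidney (182 to 227). miR-192, whose hairpin lies 115 bases from Mir194-2 on chromosome 19, had normalized signals of 29.3 to 48.8 in kidney, 87.6 and above in liver and at most 6.20 elsewhere, with differences of 0.33 ± 0.06 from the mean (adjusted p = 0.00054) and -0.83 ± 0.08 from liver (adjusted p = 3.9e-07). Its deposited signals overlapped, at 30 to 38 in kidney and 18 to 36 in liver. Both members of the list on the chip passed as higher than the mean of the others (16.5% of all probes), and 0 of them were above each tissue. miR-193, named after its values were seen, stood at 0.70 from the mean and at -0.60 ± 0.14 from liver (adjusted p = 0.0020). Its deposited signals had the opposite order, with 114 to 172 in kidney and 36 to 58 in liver, and without scaling it was rich in kidney. Of these 3 miRNAs, only miR-193 thus had deposited signals in the opposite order on all kidney and liver arrays. For miR-194 and miR-192 the deposited order differed by genotype. In klotho(-/-) mice the liver arrays lay above the kidney arrays, as after normalization, and in wild-type mice they lay below.

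Besides the rich miRNAs above, 7 dimmer ones were higher in kidney than in each of the 4 tissues. miR-34a, which is induced by p53 and restrains cell division, had normalized signals of 75.6 and 91.0 in klotho(-/-) and 59.0 and 61.3 in wild-type kidney, against 14.6 to 42.4 on the 16 others. The difference was 0.65 ± 0.09 (adjusted p = 1.5e-05). In deposited signals lung overlapped kidney, at 47 and above against 41 to 105, and miR-34a did not pass against each tissue without scaling. Its relatives miR-34b and miR-34c, which are known in multiciliated cells, both passed as lower (11.5% of all probes). Their differences were -0.31 ± 0.07 (adjusted p = 0.0022) and -0.24 ± 0.05 (adjusted p = 0.00070). That was set by lung, where miR-34b reached 87.6 to 111 against 6.61 to 8.32 in kidney.

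miR-204, known in kidney tubules and in the eye, had normalized signals of 15.4 and 12.0 in klotho(-/-) and 7.04 and 9.62 in wild-type kidney and of at most 2.27 elsewhere. The difference was 0.25 ± 0.02 (adjusted p = 3.1e-08). miR-187 had 25.2 and 27.4 against 33.5 and 30.5 in the same order, with all other arrays at 19.7 or less and a difference of 0.48 ± 0.05 (adjusted p = 1.7e-07). These were low signals, yet no array of another tissue reached kidney. In deposited signals too, miR-204 stood at 5 to 15 against at most 3, miR-196a at 18 to 29 against at most 4 and miR-187 at 23 to 27 against at most 17. In a list of other kidney epithelial miRNAs, miR-204, miR-190 and miR-203 (0.18) passed as higher, 3 of 5 probes beside 16.5% of all, and miR-205 (0.09, adjusted p = 0.15) and miR-210 (0.0055, adjusted p = 0.94) did not. The list's median was 0.09. miR-203 was not above each tissue, and its normalized signal ran from 16.6 to 23.8 in liver against 13.3 to 19.7 in kidney.

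The last 3 were near the floor in kidney itself. miR-9 and miR-9*, the 2 arms of a hairpin known for the nervous system, had mean normalized signals of 6.57 and 3.44 in kidney and at most 1.97 as a mean of any other tissue, with differences of 0.14 and 0.06. miR-190 had 3.46 against at most 1.55, with a difference of 0.07. These deposited signals were 2 to 9, where the arrays hold a floor of 1 to 3, so they are small whole numbers. Without klotho(-/-) Kidney 2, miR-9* did not pass against each tissue.

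**Figure D3:**
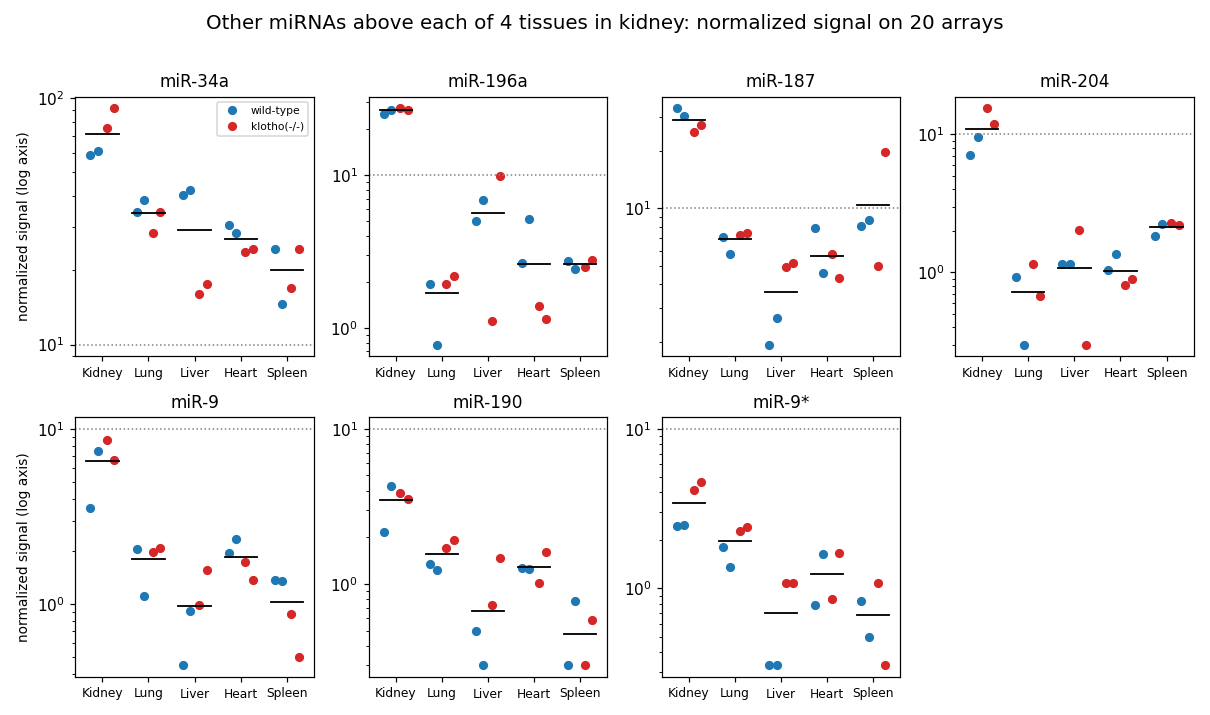
Normalized signal (log axis) on each of 20 arrays of the 7 miRNAs that were not rich but higher in kidney than in each other tissue, with the tissue mean as a bar and a signal of 10 as a dotted line. Signals under 0.3 are drawn at 0.3, and the kidney arrays lie above all others in every panel, from miR-34a at 59.0 to 91.0 down to miR-9* at 2.45 to 4.66.

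The 6 miRNAs poor in kidney were each set by 1 bright tissue. For 4 of them, made in striated muscle, the difference from heart was -5.27 for miR-1, -4.78 for miR-133a, -4.61 for miR-133b and -3.83 for miR-208. They also differed from lung, by -0.92, -0.61, -0.52 and -0.29 in that order, and did not pass against liver or spleen. miR-1 had normalized signals of 3.55 and 2.21 in klotho(-/-) and 13.3 and 2.85 in wild-type kidney, against 2078 on each heart array, where it was the brightest probe, and 40.5 to 99.7 in lung. Kidney was thus at the level of liver and spleen, and its difference from the mean was -1.50 ± 0.09 (adjusted p = 4.7e-10). miR-122a, the miRNA of hepatocytes, differed by -5.28 ± 0.06 from liver and passed against none of the other 3 tissues. Its deposited signal was 4 to 5 in kidney and 1625 to 4196 in liver. In the same way miR-142-3p, a miRNA of blood cells, differed by -3.81 ± 0.30 from spleen (adjusted p = 1.9e-08) and passed against no other tissue.

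miR-208, at -1.002 ± 0.07, lay just inside the threshold. It stayed lower but missed the threshold, at -0.96 at the least, without klotho(-/-) Lung 1, Lung 2, Kidney 1, Kidney 2 or Heart 2 or without wild-type Lung 1, Lung 2 or Heart 2. The next beyond it were miR-142-5p (-0.86 ± 0.23), miR-144 of red cell precursors (-0.83 ± 0.50, adjusted p = 0.26) and miR-150 of lymphocytes (-0.74 ± 0.19). On the upper side miR-194, miR-30e and miR-30d were next inside, and miR-141, miR-26a and miR-30b next outside. miR-26a, at 0.82 ± 0.16 (adjusted p = 0.00072), stood at only 0.07 with median scaling and did not pass against lung. When the kidney was compared with all other arrays as 1 group, so that the spread between the 4 tissues entered the error, 7 miRNAs were rich (the 8 without miR-194) and 0 were poor, with 2 miRNAs lower at an unadjusted p under 0.05 (limma).

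**Figure D4:**
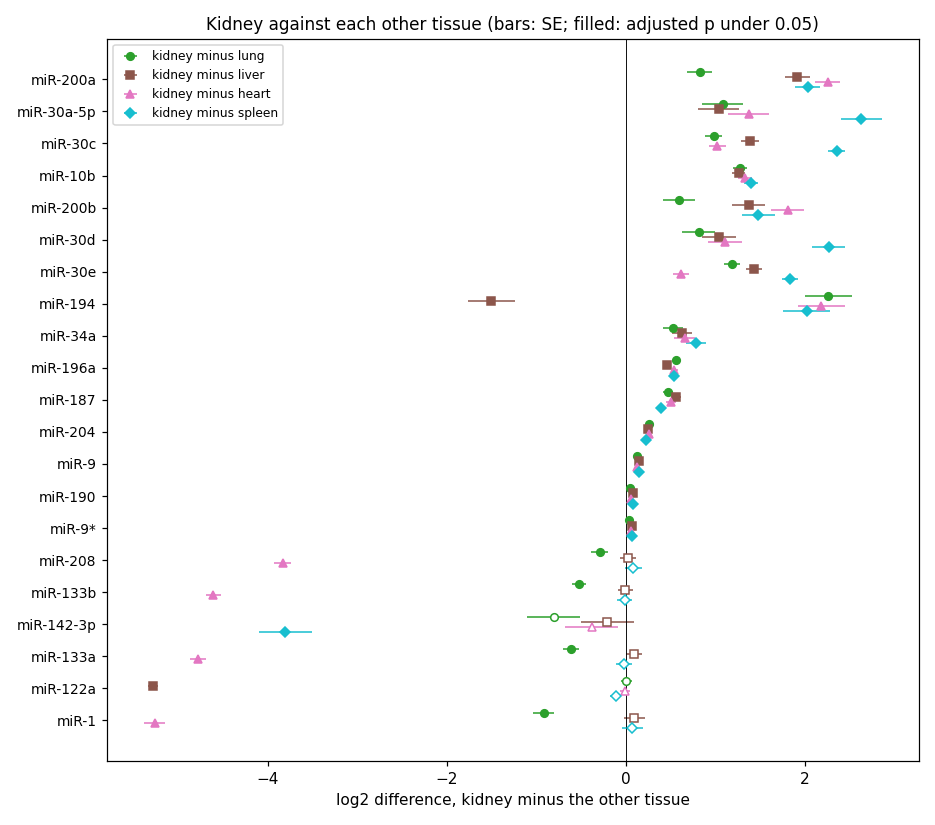
Log2 difference of kidney from each other tissue (green circle, lung; brown square, liver; pink triangle, heart; blue diamond, spleen) with the SE as a bar, filled where the adjusted p is under 0.05. The upper miRNAs lie right of 0 against each tissue except miR-194 against liver (-1.50), and each of the 6 poor miRNAs has 1 tissue far to the left, from -3.81 to -5.28.

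Markers of other cell types gave the kidney arrays little signal for striated muscle, hepatocytes and leukocytes. The 5 striated muscle probes summed to a normalized signal of 11.6 to 48.0 per kidney array, 105 and above in lung and 5452 to 5745 in heart, and 4 of the 5 passed as lower (11.5% of all probes), all but miR-206. The 4 leukocyte probes summed to 23.1 to 32.6 in kidney, 34.4 to 42.0 in liver, 52.3 to 97.2 in heart, 77.4 to 130 in lung and 463 to 2212 in spleen. Of these probes 3 passed as lower (11.5% of all probes), all but miR-155. The endothelial miR-126-3p was present in kidney at normalized signals of 237 to 295, below lung (difference -2.49 ± 0.18) and heart (-0.97 ± 0.18), above spleen (1.05 ± 0.18) and close to liver (-0.03 ± 0.18, adjusted p = 0.96). miR-126-5p, its other arm, was at 3.05 to 6.84. Both arms passed as lower in the mean contrast (11.5% of all probes), miR-126-3p at -0.61 and miR-126-5p at -0.12. The miR-126-5p call was lost on leaving out 3 arrays in turn and under 4 of 16 other settings, and the miR-126-3p call under 4 of 17. Of the smooth muscle, fibroblast, erythroid and pancreas probes, 2, 2, 1 and 1 in number, 0 passed in the mean contrast. The smooth muscle probes were bright in kidney, at a sum of 761 to 775, above liver (289 to 309) and below lung, heart and spleen.

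Families of broad expression are given beside the 16.5% of all probes that passed as higher and the 11.5% as lower. Of 11 probes for miR-17 and its paralogs 0 passed, with differences of -0.28 to -0.02, and of the 3 miR-29 members 0 passed, at -0.24 to 0.36. Of 8 let-7 members let-7g was higher (0.39 ± 0.06, adjusted p = 0.00011) and let-7i lower (-0.37 ± 0.08, adjusted p = 0.0016), but let-7g turned to -0.03 with median scaling. Of 5 probes for the clusters of miR-23 to miR-27 only miR-23b passed (0.34), and it turned to -0.18 with median scaling. That call was marginal (adjusted p = 0.042) and was lost on leaving out 15 of the 20 arrays in turn, at adjusted p of up to 0.13. miR-195 was lower by 0.40 and turned to 0.03 and 0.0019 with scaling by the median of all probes and with no scaling, and its call was lost without wild-type Kidney 1 or wild-type Kidney 2. The lists of miR-15 and miR-16, of the miR-26 pair and of miR-99 with miR-125 held 1 call each (miR-195 lower of 4, miR-26a higher of 2, miR-99b higher of 4), as did the neural list (miR-9 higher of 7). The miR-99b call (0.18, adjusted p = 0.024) was lost without klotho(-/-) Kidney 1, klotho(-/-) Kidney 2 or wild-type Kidney 2, at adjusted p of up to 0.082, and under 9 of 16 other settings. miR-101b, the only one of its pair to pass, at -0.65 ± 0.06, was set by liver, where kidney was lower by 2.76, and miR-31, at -0.36 ± 0.09, by liver as well (-1.25 ± 0.11).

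The profile was next compared between the genotypes, since klotho is made in kidney. The difference of kidney from the other tissues was taken in klotho(-/-) mice less that in wild-type littermates, with 2 kidney and 8 other arrays each. For 0 of 200 miRNAs (0%) did it pass (limma, adjusted p under 0.05), and 17 had an unadjusted p under 0.05. The smallest adjusted p was 0.12, for miR-204, miR-34a and miR-194. In wild-type mice the kidney difference was 0.19 for miR-204, 0.44 for miR-34a and 1.83 for miR-194, and in klotho(-/-) mice it was 0.31, 0.86 and 0.66.

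For miR-194 the genotypes did not overlap in kidney, at 123.95 and 177 against 402 and 338 in normalized signal, but in deposited signal they were closer, at 182 and 183 against values up to 227. Within kidney its log2 difference between genotypes was -1.08 (adjusted p = 0.078). Fitted on wild-type arrays alone, 8 miRNAs were rich, the same as over both genotypes, and on klotho(-/-) arrays alone 7, with miR-194 not among them. Without klotho(-/-) Spleen 2 the genotype difference passed for 5 miRNAs, among them miR-194 and miR-34a, and without klotho(-/-) Spleen 1 for 2, so this count rested on single arrays.

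**Figure D5:**
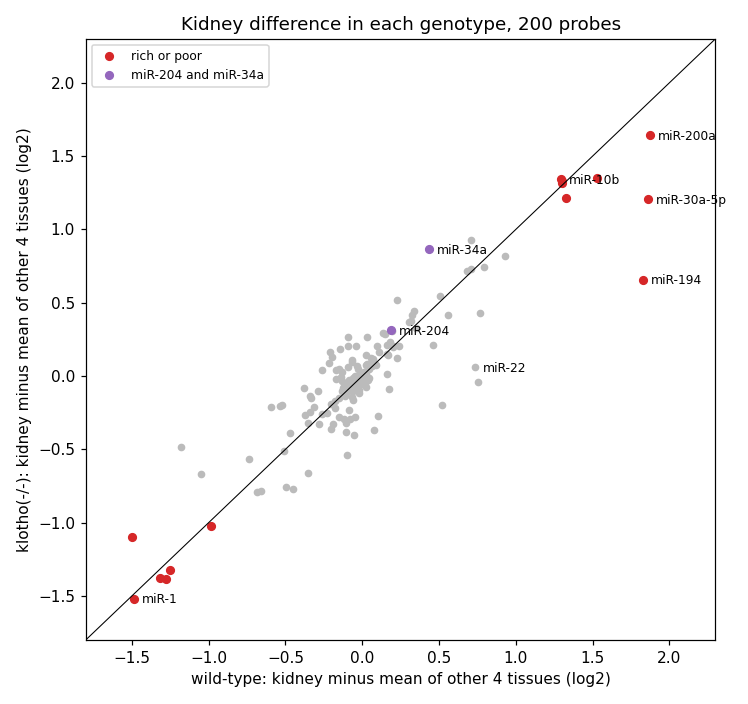
Log2 difference of kidney from the mean of the other 4 tissues in wild-type (horizontal) and klotho(-/-) mice (vertical) for 200 probes, with the line of equality, the 14 rich or poor miRNAs in red and miR-204 and miR-34a in purple. Most points lie near the line, miR-194 lies below it (1.83 and 0.66) and miR-34a above it (0.44 and 0.86), and 0 passed the test of the difference.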

How the data were processed

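The authors isolated small RNA from total RNA, labelled it with a single dye and hybridized it to a Genopal MICM chip. They deposited fluorescence intensity in 2 tables, one with the background left in and one with a near constant of 16.7 to 21.6 per array subtracted, rounded to whole numbers and unscaled. The scanner and spot software were not given in the sources used here. Background in the first was corrected by normexp (limma 3.58.1, R 4.3.3, offset 50), and values were quantile-normalized over all 20 arrays and taken to log2. One model with tissue and genotype was fitted to 200 probes (lmFit, eBayes with a trend, 14 residual and 2.20 prior degrees of freedom), with contrasts of kidney against the mean of the other 4 tissues and against each of them. A model of 10 groups gave the difference between genotypes. P-values were adjusted by Benjamini-Hochberg over all probes. The model fit was tested on simulated log2 values in which all tissues but kidney had the same mean. Background correction and normalization were not part of that test. Arrays of 1 number and genotype were read as 1 mouse by the legend. The correlation of their deviations from the group means, kidney with each other tissue, was -0.04 to 0.45, above 0.1 for 5 of 8, and a block for the mouse was an alternative. The number of arrays limits the precision.

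The text names the rich and poor miRNAs, those next to the threshold, the markers, members of 24 lists of families and cell types, and the smallest p-values between genotypes. These members and lists were chosen with earlier results of these data known. Alternatives were other scalings, the second table, offsets of 16 and 150, minimum signals of 10 and 30, other designs, the methods' Student test, 1 genotype, no spleen, no liver, and leaving out each array.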

Additional observations from a re-analysis of the deposited data

Results flagged for a closer look

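Among the 4 kidney arrays, 1 array lay far from the other 3 for 8 of the 43 named miRNAs, by Dixon's ratio of the gap to the range, where chance alone gives about 1 in 20. Normalization gives probes of equal rank equal values, so a gap can be a step between ranks. miR-10b was lower on wild-type Kidney 1, at a normalized signal of 91.0, than on the others, which shared 99.7. miR-200b was higher on klotho(-/-) Kidney 1, at 157, than the shared 131. miR-30a-5p was at 2078 on wild-type Kidney 2. miR-23b was at 511 on klotho(-/-) Kidney 1 against a shared 439. miR-122a was lower on klotho(-/-) Kidney 2, at 3.72.

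Wild-type Kidney 1 was high for 3 miRNAs of striated muscle, miR-1 at 13.3, miR-133a at 15.4 and miR-133b at 14.0, with deposited signals of 10, 11 and 10 against 2 to 4 on the other 3 kidney arrays. miR-208, also of heart muscle, was at a deposited 4 on that array and 3 to 4 on the others.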

How the results depend on the processing

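For the 43 named miRNAs, 617 differences under other settings kept their direction and their side of an adjusted p of 0.05. Of the rest, 93 no longer passed, 3 newly passed and 5 turned sign. With 1 array left out, 837 kept both and 23 no longer passed (15 of these miR-23b, 3 miR-99b, 3 miR-126-5p and 2 miR-195). A difference of 1 or -1 was not part of this count, so a rich or poor call could still be lost, as for miR-208. Median scaling over probes bright on all arrays left 3 rich miRNAs and 9 above each tissue, and turned let-7g to -0.033 and miR-23b to -0.18. No scaling left 6 above each tissue, namely miR-10b, miR-187, miR-190, miR-196a, miR-204 and miR-9. miR-195 turned to 0.031 with scaling by the median of all probes and to 0.0019 with no scaling, and miR-101b to 0.054 without liver. An offset of 16 gave 14 rich, and one of 150 gave 3 rich and 1 poor, as the offset sets how far dim probes can differ. A minimum signal of 30 left 100 probes and 8 above each tissue. Kidney against all others as 2 levels and the methods' Student test both gave 0 poor. The genotype difference passed for 2 miRNAs with the second table (miR-384 and miR-9*) and for 2 without spleen (miR-194 and miR-34a). Without liver 1 miRNA, miR-127, was below each tissue left. Where no cause is given, the cause was not tested. With the mouse as a replicate block, fixed or random, the counts were 8 rich, 6 poor, 14 above, 0 below and 0 between genotypes, as without it, while at any difference the fixed block gave 34 higher and 25 lower. With 1 array left out the counts were 8 to 9 rich, 5 to 6 poor, 13 to 15 above, 0 to 0 below and 0 to 5 between genotypes. The last was 5 without klotho(-/-) Spleen 2, 3 without wild-type Kidney 2, 2 without klotho(-/-) Spleen 1 or wild-type Kidney 1, and 1 without klotho(-/-) Kidney 1, klotho(-/-) Kidney 2, wild-type Liver 1 or wild-type Liver 2. Dim probes, at deposited signals of a few units, limit what can be read.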
